A study of Mus musculus with 6 samples.

Results

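The genes described here encode the core machinery of mitochondrial fusion and fission. They are Opa1, Mfn1, Mfn2, Dnm1l, Fis1, Mff, Mief1, Mief2 and Gdap1, and each was found by its symbol as 1 locus of the count table, so that 9 of 51499 loci are described. Transcripts were measured by RNA sequencing of poly(A)-selected RNA from mouse embryonic fibroblasts (MEFs) immortalized with SV40 large T antigen. The WT cells carried floxed Yme1l alleles (Yme1l fl/fl), and the Yme1l-/- cells had lost the gene through Cre recombinase. Each genotype was sampled as 3 independent cultures, the labels name no batch, and the cells had been expanded as individual clones, so that an effect of the genotype and a difference between clones cannot be told apart. The p-values below measure the spread between cultures of these cells.

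Mitochondria form a network that is joined by fusion and divided by fission. Fusion of the outer membrane is driven by the mitofusins MFN1 and MFN2 and fusion of the inner membrane by OPA1, all GTPases of the dynamin superfamily, whereas fission is carried out by DRP1 (encoded by Dnm1l), a cytosolic GTPase that is recruited by adaptors in the outer membrane. The protease YME1L, and a second inner membrane protease called OMA1, cut long forms of OPA1 into short forms, and cells without YME1L are known for a fragmented network. The comparison asks whether the transcripts of this machinery differ between cells with and without YME1L. A gene-level count cannot separate the long and short forms of OPA1, which arise in the protein.

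Yme1l1, the deleted gene, was at 191, 192 and 183 CPM in the WT libraries and at 37.9, 38.9 and 40.5 CPM in the Yme1l-/- libraries (CPM is the count scaled to a library total of 1000000). Its log2 fold change, here always Yme1l-/- over WT, was -2.27 ± 0.05 (SE, n = 3 per genotype; edgeR quasi-likelihood test, adjusted p = 2.4e-11). The count covers the whole gene and does not separate deleted from remaining exons. The libraries held 33180867 to 49351107 fragments, and Yme1l-/- replicates 2 and 3 were deeper than the other 4. Of 11 fibroblast markers, 7 exceeded 10 CPM in every library, while Thy1 and Lum lay below 1 CPM in all 6. The summed fibroblast markers, of which Fn1 was the most abundant in every library, were 10958 to 11514 CPM in WT and 6720 to 7203 CPM in Yme1l-/- libraries, while Col1a1 was higher (1615 and 2176 CPM on average) and Pdgfra was not called. Col1a2 went the other way from Col1a1, at 1669 to 1754 CPM in WT and at 1083 and 1099 CPM in Yme1l-/- replicates 1 and 2. WT replicate 2 stood apart from WT replicates 1 and 3, with Col3a1 at 301 CPM against 86.3 and 91.04 and Dcn at 7.85 CPM against 1.57 and 1.56. The chi-square per degree of freedom between WT libraries was 34.4 and 37.2 for the pairs that held it and 12.5 for the other. Between Yme1l-/- libraries that measure was 21.2 and 16.7 for the pairs that held replicate 1 and 8.54 for the other. Markers of the epithelial, haematopoietic, endothelial and muscle lists stayed at or below 3.92 CPM in every library, with 1 marker of each above 1 CPM in any. Of these markers Epcam was lower in Yme1l-/- cells (means of 1.29 and 0.0848 CPM), and Cd68 (1.77 and 3.62 CPM), Kdr (0.994 and 1.64 CPM) and Des (0.436 and 2.65 CPM) were higher. Of the 6 markers of the neuronal list 5 were measured, without Tubb3. Map2 alone of the measured ones exceeded 1 CPM, and it was lower (24.5 and 7.05 CPM). All these differences were called by edgeR. The part of these marker differences in the results below was not tested, and in bulk samples fewer cells of a type and less RNA per cell cannot be told apart.

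Of the 9 genes, 8 had enough fragments for the test. Mfn1, Mfn2, Fis1, Mief1 and Mief2 were higher in Yme1l-/- cells, by 1.11-fold to 1.89-fold, and Opa1, Dnm1l and Mff did not pass the test. No gene of the 8 was called lower. The 5 calls stand beside a very high background, since 67.7% of the 13867 tested loci were called in either direction (adjusted p under 0.05), 33.6% higher and 34.1% lower. None of the 8 genes reached a 2-fold change, whereas 17.7% of all tested loci were called with at least that change. The median log2 fold change of the 8 genes was 0.28, beside -0.00 over all tested loci, and the median of the absolute values was 0.28 beside 0.38. In the plot of CPM by library, the 5 called genes are those whose 3 Yme1l-/- libraries all lie above the 3 WT libraries, a pattern found in 35.9% of all tested loci.

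**Figure D1:**
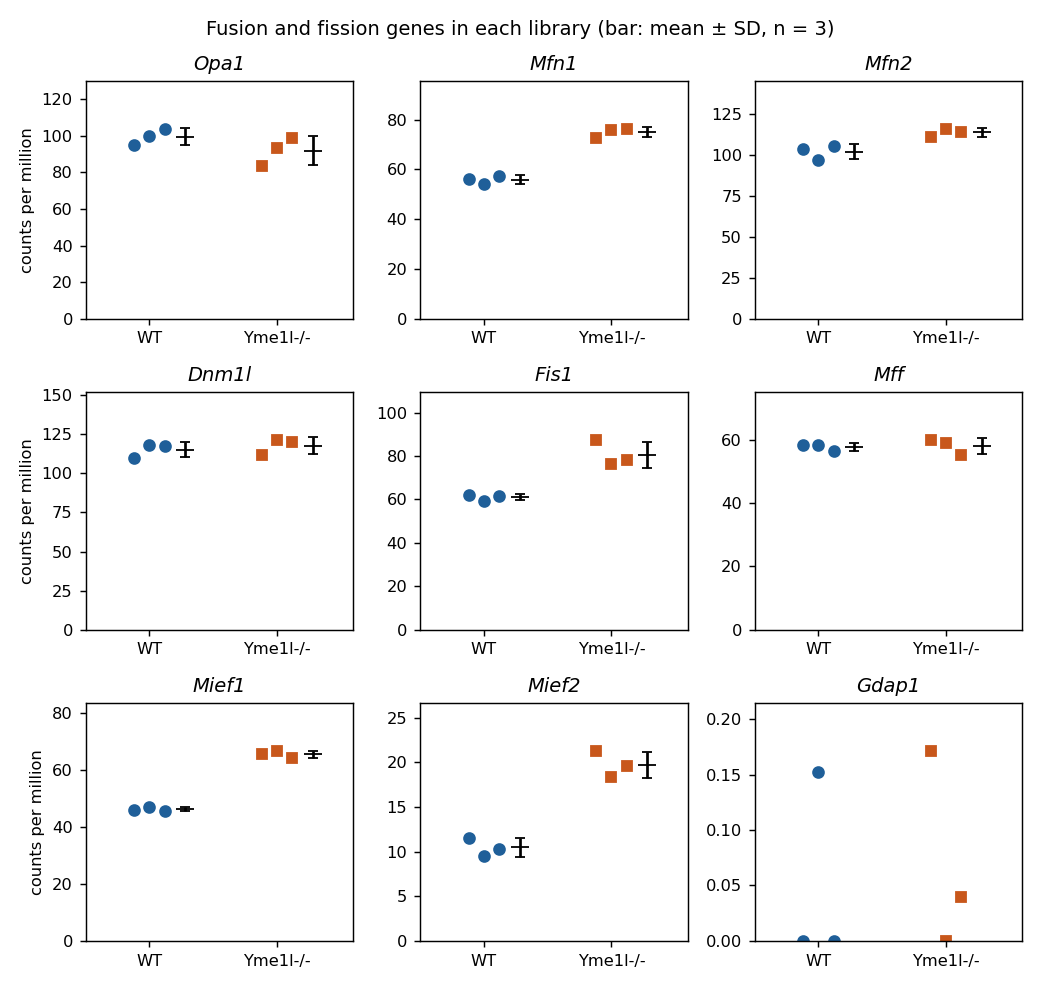
CPM (vertical axis, each from 0 with its own scale) of the 9 fusion and fission genes in the 3 WT (circles) and 3 Yme1l-/- libraries (squares), with mean ± SD for the 8 tested genes. Mfn1, Mfn2, Fis1, Mief1 and Mief2 do not overlap between genotypes, Opa1, Dnm1l and Mff do, and Gdap1 stays below 0.2.

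Opa1, the GTPase of inner membrane fusion and the YME1L substrate of the group, lies on chromosome 16 (GRCm38, chr16:29579334-29654884, plus strand). It was at 94.9, 99.7 and 104 CPM in WT and at 83.5, 93.2 and 99.03 CPM in Yme1l-/- libraries. The genotypes overlapped, with Yme1l-/- replicate 1 the lowest of the 6. The log2 fold change was -0.11 ± 0.06 (SE, adjusted p = 0.14, edgeR), and its 95% interval in folds ran from 0.838 to 1.02. Leaving out 1 library at a time moved the log2 value between -0.17 and -0.05 without a call. Without Yme1l-/- replicate 3 the adjusted p was 0.0504 (edgeR), close to the threshold.

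Of the genes with a RefSeq promoter, Opa1 was the only one to hold any of the 3 motifs searched. Promoters (250 bases before to 50 after the start, RefSeq, GRCm38.p6) matched 8 of the 9 genes, with 13 promoters in all, and Gdap1 had no entry in the promoter set used. The motif of NRF1, a transcription factor of many genes for mitochondrial proteins, occurred in 1 of the 13 and in 0.971% of all 32851 promoters, both strands searched. Neither an ATF4 and CHOP type motif (TGATGCAAT), present in 0.192% of all promoters, nor an interferon response type motif, present in 3.44%, occurred in the 13. A match is a description of letters and not a binding site. The bases upstream of Opa1 (chr16:29579084-29579333, plus strand) are shown because they hold this match, in capitals, which begins 59 bases before the RefSeq start.
Opa1 upstream: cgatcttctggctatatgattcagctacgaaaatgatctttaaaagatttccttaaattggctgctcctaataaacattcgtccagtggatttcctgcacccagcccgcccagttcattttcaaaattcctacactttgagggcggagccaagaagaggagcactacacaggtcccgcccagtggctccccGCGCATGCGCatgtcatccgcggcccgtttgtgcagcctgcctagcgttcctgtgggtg

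Mfn1 and Mfn2, which tether and fuse outer membranes, were both higher in Yme1l-/- cells. Mfn1 (chr3:32529465-32579239, plus strand) was at 56.0, 54.3 and 57.6 CPM in WT and at 72.8, 75.9 and 76.5 CPM in Yme1l-/- libraries. Every Yme1l-/- library lay above every WT library, and the log2 fold change was 0.42 ± 0.05 (SE, adjusted p = 8.8e-06, edgeR), a 1.34-fold difference. Mfn2 (chr4:147873599-147904704, minus strand) was at 104, 96.9 and 106 CPM in WT and at 111, 116 and 114 CPM in Yme1l-/- libraries. The gap between the genotypes was narrow, and the log2 fold change was 0.16 ± 0.05 (SE, adjusted p = 0.013, edgeR). Mfn2 no longer passed the test without WT replicate 2, the WT library that stood apart (log2 0.12, adjusted p = 0.058), or without Yme1l-/- replicate 2 (log2 0.14, adjusted p = 0.057). The median log2 fold change was -0.12 over chromosome 3, which holds Mfn1, and -0.10 over chromosome 4, which holds Mfn2, while that of the 50 tested loci nearest to each was 0.06 and -0.05.

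The balance within the mitofusin pair was compared as the share of Mfn1 in the fragments of Mfn1 and Mfn2 together, a measure that does not depend on library scaling. It was 35.04%, 35.9% and 35.2% in WT and 39.6%, 39.5% and 40.1% in Yme1l-/- libraries. The exact 95% counting intervals of the WT libraries reached at most 37.3%, and those of the Yme1l-/- libraries began at 38.4% or higher. The means were 35.4% ± 0.463 and 39.7% ± 0.339 (SD, n = 3 each), a difference of 4.31 percentage points (exact permutation test, two-sided, p = 0.1, the smallest value that 3 against 3 allows; 0.1 after adjustment over the 2 shares tested). Gene lengths differ, so the share is not the ratio of the molecules. Intervals on shares and sums of counts cover counting error only.

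**Figure D2:**
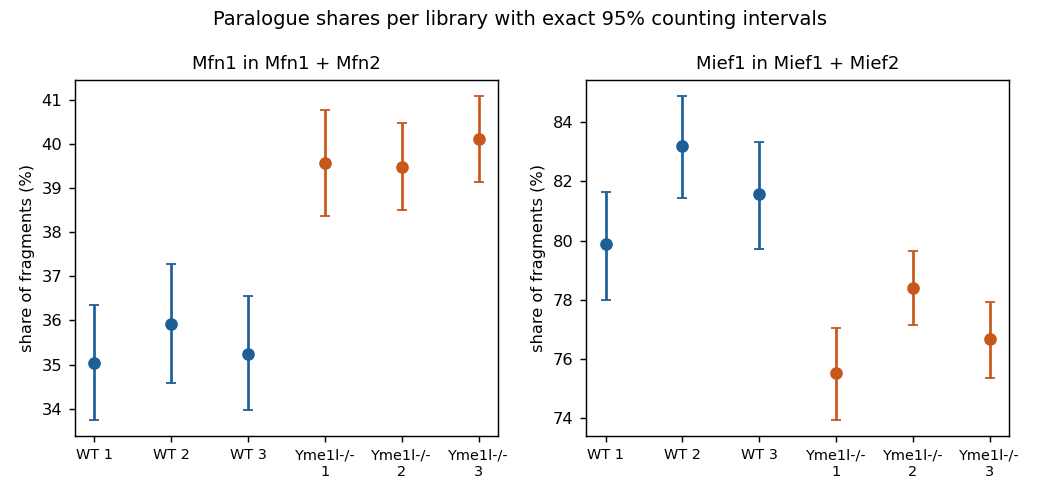
Share of fragments (%, vertical axis, not from 0) of Mfn1 in Mfn1 plus Mfn2 (left) and of Mief1 in Mief1 plus Mief2 (right) in each library, with exact 95% counting intervals. The Mfn1 share is higher in all 3 Yme1l-/- libraries (39.5% to 40.1%), and the Mief1 share is lower in all 3 (75.5% to 78.4%).

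Dnm1l, which encodes the fission GTPase DRP1, lies on chromosome 16 (chr16:16312230-16358959, minus strand). It was at 110, 118 and 118 CPM in WT and at 112, 121 and 120 CPM in Yme1l-/- libraries. The genotypes overlapped, with Yme1l-/- replicate 1 inside the WT range and the other two above it by a small margin, and the log2 fold change was 0.03 ± 0.05 (SE, adjusted p = 0.60, edgeR). The 95% interval ran from 0.945-fold to 1.11-fold. Its exons share 243 bases with the antisense gene Gm49521; the libraries were stranded, but whether counting used the strand is not given in the sources used here.

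Mff and Fis1 encode outer membrane proteins that recruit DRP1 or act with it. Mff (chr1:82724890-82752394, plus strand) was at 58.3, 58.3 and 56.4 CPM in WT and at 60.0, 59.1 and 55.0 CPM in Yme1l-/- libraries. The Yme1l-/- values enclosed the WT values, and the log2 fold change was 0.01 ± 0.05 (SE, adjusted p = 0.88, edgeR), with a 95% interval of 0.933-fold to 1.08-fold. Its exons share 195 bases with C430014B12Rik on the opposite strand. Fis1 (chr5:136953275-136966234, plus strand) was at 62.3, 59.5 and 61.4 CPM in WT and at 87.5, 76.2 and 78.0 CPM in Yme1l-/- libraries. Every Yme1l-/- library was higher, replicate 1 the most, and the log2 fold change was 0.40 ± 0.06 (SE, adjusted p = 8.4e-05, edgeR), a 1.32-fold difference. Leaving out that replicate gave the lowest value of the single-library omissions, 0.34, still called. The difference between the changes of Mff and Fis1 was not tested.

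Mief1 and Mief2 encode MiD51 and MiD49, a pair of related outer membrane receptors for DRP1. They had the largest fold changes of the 8 genes without removal of chromosome or neighbour medians, which turned the sign of Mief1. Mief2 (chr11:60728398-60732951, plus strand) was at 11.6, 9.50 and 10.3 CPM in WT and at 21.3, 18.4 and 19.6 CPM in Yme1l-/- libraries. The lowest Yme1l-/- library stood well above the highest WT library, and the log2 fold change was 0.91 ± 0.09 (SE, adjusted p = 3.9e-06, edgeR), 1.89-fold with a 95% interval of 1.64 to 2.16. Of the tested loci, 79.8% had a smaller absolute log2 fold change.

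Mief1 (chr15:80234018-80253371, plus strand) was at 45.9, 47.0 and 45.7 CPM in WT and at 65.7, 66.7 and 64.3 CPM in Yme1l-/- libraries. These values were the tightest of the group, with coefficients of variation of 1.597% in WT and 1.86% in Yme1l-/- libraries. The log2 fold change was 0.50 ± 0.04 (SE, adjusted p = 1.6e-06, edgeR), a 1.42-fold difference. The locus was merged by the authors with AC140267.1, an annotated coding gene of 213 bases (chr15:80235835-80236047, same strand) that lies wholly within Mief1 exons, ahead of the first Mief1 coding base at 80246744. Its fragments and those of Mief1 cannot be told apart in these counts.

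The share of Mief1 in the fragments of both MiD genes was 79.9%, 83.2% and 81.6% in WT and 75.5%, 78.4% and 76.7% in Yme1l-/- libraries. The shares of the genotypes did not overlap, although the exact 95% counting intervals of WT replicate 1 (78.0% to 81.7%) and Yme1l-/- replicate 2 (77.2% to 79.6%) did, and the means were 81.6% ± 1.67 and 76.9% ± 1.45 (SD, n = 3 each), a difference of -4.69 percentage points (exact permutation test, two-sided, p = 0.1, the smallest possible). The bases upstream of both are shown because this pair had the largest fold changes in that fit and because its promoters differ in composition. The Mief1 promoter held 31 CG dinucleotides and 68.7% G or C in its 300 bases, and that of Mief2 held 18 and 55.0%, beside medians of 7 and 52.7% over all promoters. Capitals mark CG in the printed stretches, chr15:80233830-80234017 and chr11:60728148-60728397, both plus strand and ending before the first annotated exon.
Mief1 upstream: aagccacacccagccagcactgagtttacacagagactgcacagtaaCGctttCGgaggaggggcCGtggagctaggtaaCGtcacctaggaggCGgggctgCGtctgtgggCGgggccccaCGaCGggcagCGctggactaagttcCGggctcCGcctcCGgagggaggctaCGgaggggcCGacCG
Mief2 upstream: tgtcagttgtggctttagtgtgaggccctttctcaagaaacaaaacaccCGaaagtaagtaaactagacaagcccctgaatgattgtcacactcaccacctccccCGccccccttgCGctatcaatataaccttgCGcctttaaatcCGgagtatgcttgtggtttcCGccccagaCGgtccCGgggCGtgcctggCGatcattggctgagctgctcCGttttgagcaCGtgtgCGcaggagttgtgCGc

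Mief1 and Mief2 lie on chromosomes whose loci were higher in Yme1l-/- libraries as a whole. The median log2 fold change was 0.59 on chromosome 15 and 0.36 on chromosome 11, and between -0.15 and 0.01 on the chromosomes of the other tested members. Of the 50 tested loci nearest to Mief1, 43 were called higher and 1 lower, with a median of 0.65. The value of Mief1 itself, 0.50, lay below 33 of these 50. The next tested locus after it, Atf4, which encodes a stress-response transcription factor, had a log2 fold change of 0.99 ± 0.05 (SE, adjusted p = 1.5e-08, edgeR). With the chromosome median removed the log2 value of Mief1 was -0.09 (adjusted p = 0.11), and with the median of its neighbours removed it was -0.14 (adjusted p = 0.016), so the sign turned under both settings.

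**Figure D3:**
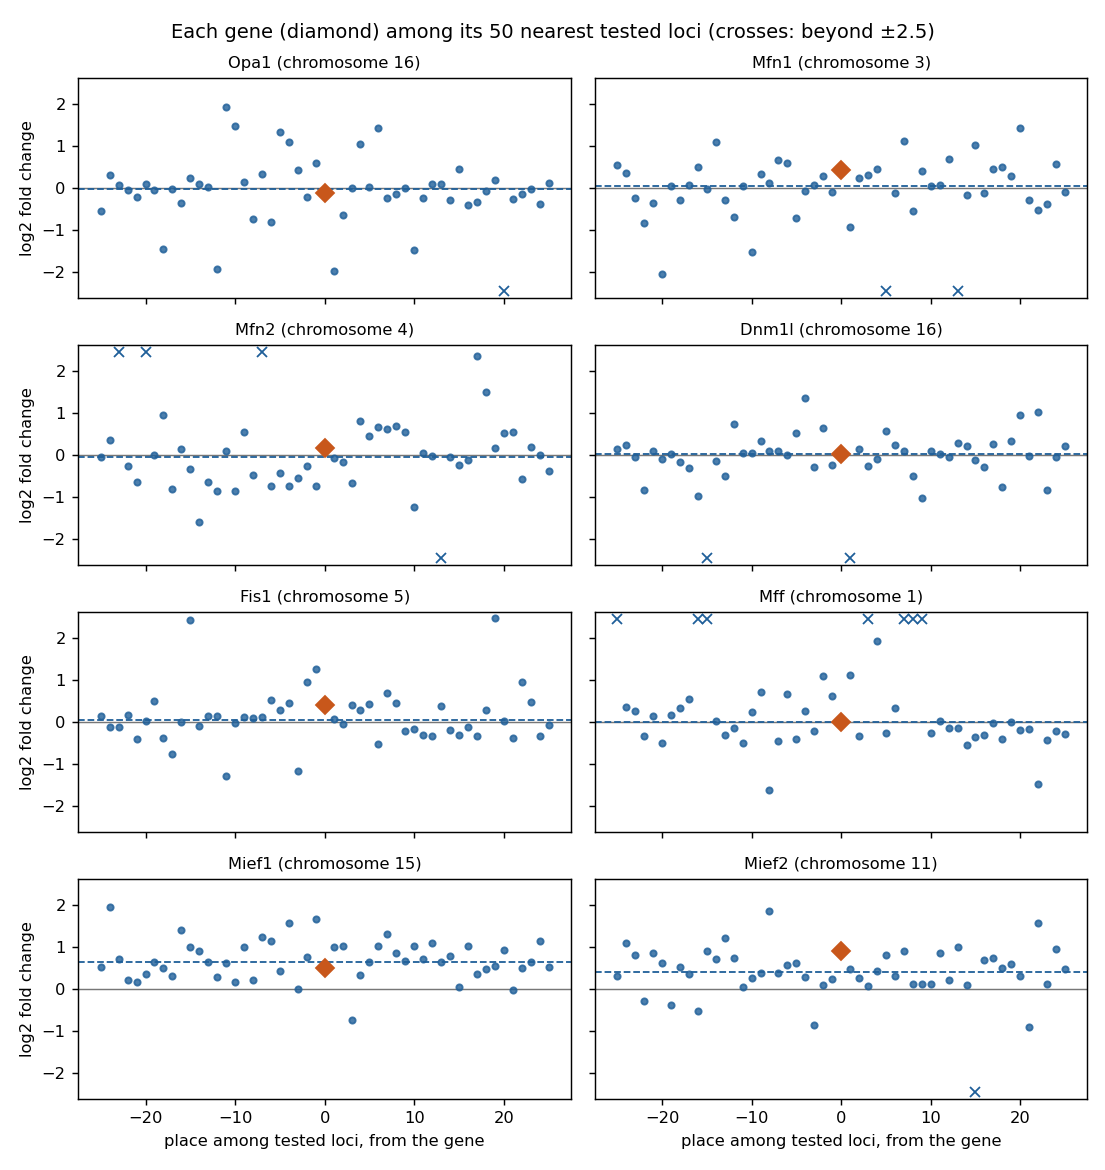
Log2 fold change (vertical axis, Yme1l-/- over WT) of each tested gene (diamond, at 0) and its 50 nearest tested loci (points) by their place on the chromosome (horizontal axis, in loci), with crosses for values beyond 2.5 and a dashed line at their median. Mief1 sits just below the raised median of its neighbours (0.65), Mief2 above its own (0.41), and the medians of the other 6 lie near 0.

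The other 4 called genes exceeded the median of their neighbours. Among the 50 loci nearest to Mief2, 37 were called higher and 3 lower with a median of 0.41, and Mief2 exceeded 44 of them. Its log2 value was 0.56 (adjusted p = 0.00025, edgeR) with the chromosome median removed and 0.51 (adjusted p = 0.00051) with the neighbour median removed. Mfn1 exceeded 37 of its 50 neighbours (median 0.06), and its value was 0.54 and 0.37 under the same settings. Fis1 exceeded 37 of 50 (median 0.04) and was at 0.39 and 0.36. Mfn2 exceeded 32 of 50 (median -0.05) and was at 0.26 and 0.21, called under both. The removed median was a fixed value in the fit, so these calls do not include the spread of the surrounding loci. The upper quartile of the neighbours was 0.75 for Mief2, 0.431 for Mfn1, 0.3995 for Fis1 and 0.54 for Mfn2. Only Mief2 exceeded its own.

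Opa1 and Dnm1l, both on chromosome 16 with a median of -0.02, were not called under either setting. Mff was called higher with the median of chromosome 1 (-0.15) removed, at 0.16 (adjusted p = 0.013, edgeR), and not with the median of its neighbours removed (0.01, adjusted p = 0.89). In all, 5 of the 8 genes were called higher with chromosome medians removed, beside 31.1% of all loci called higher, 31.7% lower and 62.8% in either direction. With neighbour medians removed 4 were called higher and 1 lower, beside 30.2% and 31.8% of all loci, together 62.1%. The source of the chromosome-wide differences was not tested.

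**Figure D4:**
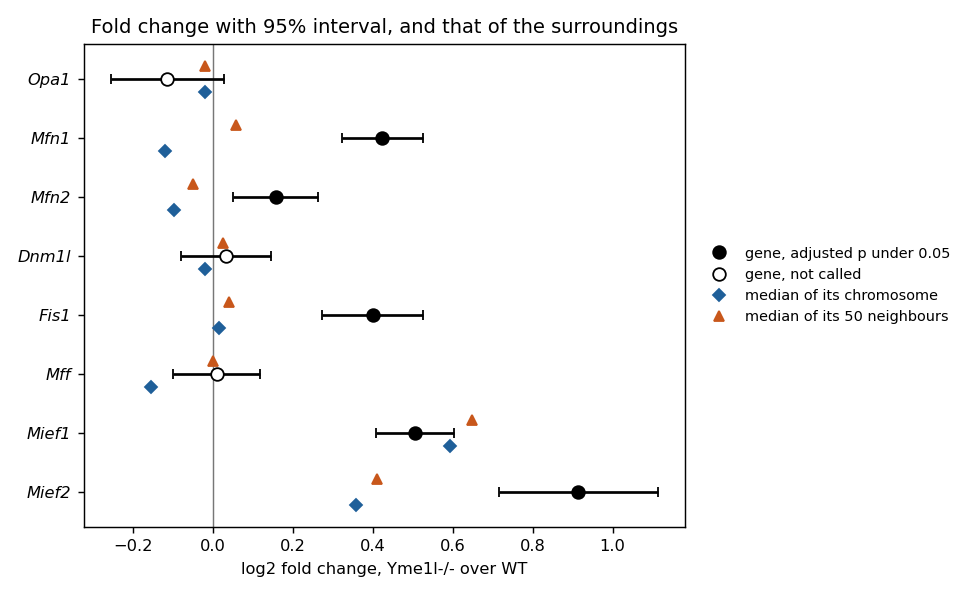
Log2 fold change (horizontal axis, Yme1l-/- over WT) of the 8 tested genes with 95% intervals, filled where the adjusted p was under 0.05, beside the median of the gene's chromosome (diamonds) and of its 50 nearest tested loci (triangles). For Mief1 (0.50) both medians (0.59 and 0.65) lie above the gene, and for the other 4 called genes both lie below it.

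Gdap1, an outer membrane protein best known from nerve, where its mutations cause a neuropathy, was barely detected (chr1:17145362-17164271, plus strand). Its fragments numbered 0, 5 and 0 in WT replicates 1 to 3 and 6, 0 and 2 in the Yme1l-/- replicates, and it did not pass the filter. The sums were 5 and 8, a ratio of 1.16 scaled to depth with an exact 95% counting interval of 0.333 to 4.49. A difference was not detectable at this depth. A count of 0 allows up to 3 fragments, which is 0.0589 to 0.0918 CPM in these libraries.

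Levels can be compared between genes only per length. On the authors' scale, FPKM (a fragment count divided by transcript length and depth, given as 1 pooled value per genotype), Fis1 was the highest in WT at 98.2, followed by Mff at 62.3, Dnm1l at 28.8, Mfn2 at 25.4, Opa1 at 23.1 and Mfn1 at 19.4. Mief1 and Mief2 were the lowest of the detected genes at 9.29 and 6.57. The authors' FPKM in Yme1l-/- cells was 13.3 for Mief1 and 11.6 for Mief2.

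The deposited counts divided by the summed length of all annotated exons gave another place to Mff. In CPM per kilobase, WT levels were 35.6 ± 0.834 for Fis1, 22.1 ± 0.902 for Dnm1l, 19.7 ± 0.903 for Mfn2, 12.6 ± 0.575 for Opa1 and 9.15 ± 0.267 for Mfn1 (SD, n = 3 each). Mff, whose annotated exons cover 9757 bases, was at 5.91 ± 0.117, next to Mief1 at 5.70 ± 0.091 and Mief2 at 3.85 ± 0.384. Library ranges overlapped only between Mff and Mief1 among neighbours in this order. The place of Mff thus differed between the scales, which differ in the quantification as well as in the length used, while the order of the other 8 genes was the same on both.

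Genes that act around this machinery were called in both directions, as were loci in general. Of 46 related genes in 4 lists, 41 were tested, 14 were called higher and 17 lower, beside 33.6% and 34.1% of all loci, with a median log2 fold change of -0.06 beside -0.00. With chromosome medians removed 18 of the 41 were called (6 higher, 12 lower), beside 62.8% of all loci, and with neighbour medians removed 16, beside 62.1%. Spg7 was not analysed here.

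Among genes of inner membrane fusion and OPA1 processing, 3 of 7 tested were higher, 3 lower and 1 not called (median -0.08). Oma1, the protease that also cuts OPA1, was the one not called, at 6.43, 6.87 and 7.29 CPM in WT and 6.60, 6.58 and 6.28 CPM in Yme1l-/- libraries (log2 -0.08 ± 0.10, SE, adjusted p = 0.48, edgeR). Phb2 and Phb, the prohibitins that form a ring scaffold in the inner membrane, had log2 values of 0.36 ± 0.06 and 0.29 ± 0.09 (adjusted p = 0.00021 and 0.020, edgeR). Slc25a46, an outer membrane carrier-family protein, was at -0.27 ± 0.05 (adjusted p = 0.00089). Phb was not called without WT replicate 1 (log2 0.28, adjusted p = 0.062), without WT replicate 2 (log2 0.25, adjusted p = 0.059) or with no filter (log2 0.29, adjusted p = 0.062). Without Yme1l-/- replicate 1 its value was 0.18, still called. With chromosome medians removed none of these 3 was called, and with neighbour medians removed Phb was called lower (-0.25, adjusted p = 0.038).

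Among fission regulators, 6 of 17 tested were higher, 7 lower and 4 not called (median -0.06). The locus of Ppp3r1, among the higher ones, was merged with Wdr92, so its call is not for Ppp3r1 alone. Ppp3cb, a catalytic subunit of calcineurin, which dephosphorylates DRP1, was at -0.54 ± 0.06 on the log2 scale (SE, adjusted p = 6.1e-06, edgeR). Prkaca, the catalytic subunit of protein kinase A, which phosphorylates DRP1, was at -0.47 ± 0.04 (adjusted p = 1.9e-06), at -0.16 with chromosome medians removed (adjusted p = 0.0077), and not called with neighbour medians removed (-0.081, adjusted p = 0.12). Mtfp1, an inner membrane protein of fission, was at 0.53 ± 0.19 (adjusted p = 0.031) from 1.24 to 1.77 CPM in WT and 2.00 to 2.68 CPM in Yme1l-/- libraries. Mtfp1 was not called without WT replicate 1 (adjusted p = 0.11), Yme1l-/- replicate 1 (adjusted p = 0.11) or Yme1l-/- replicate 3 (adjusted p = 0.053), nor with chromosome medians (0.17, adjusted p = 0.46) or neighbour medians removed (0.12, adjusted p = 0.62) or with DESeq2 (adjusted p = 0.078). March5 and Gdap1l1 did not pass the filter. The March5 locus held 0 to 3 fragments in every library and has the same listed start as the Cpeb3 locus, and whether its fragments were counted elsewhere was not tested, so its level is not known.

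Among outer membrane fusion partners and turnover genes, 2 of 8 tested were higher, 2 lower and 4 not called (median -0.02). Miga1, an outer membrane protein that promotes fusion, had 310, 393 and 368 fragments in WT and 3, 3 and 5 in Yme1l-/- libraries. The summed counts gave a level of 0.742% of WT with an exact 95% counting interval of 0.369% to 1.33%, and Miga2, its paralogue, did not pass the test. Pink1, a kinase of mitochondrial quality control, was at 0.45 ± 0.10 (SE, adjusted p = 0.0017, edgeR). Huwe1, a ubiquitin ligase, was at -0.31 ± 0.12 (adjusted p = 0.040) and was not called without WT replicate 2, WT replicate 3, Yme1l-/- replicate 1 or Yme1l-/- replicate 3 (adjusted p from 0.059 to 0.15). Its value was -0.19 without WT replicate 3. Huwe1 was also not called with chromosome medians removed (-0.11, adjusted p = 0.46), upper-quartile scaling (adjusted p = 0.089) or no filter (adjusted p = 0.16). With neighbour medians removed its sign turned (0.023, adjusted p = 0.88, edgeR). Pld6 and Park2 did not pass the filter.

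Among mitochondrial motility genes, 3 of 9 tested were higher, 5 lower and 1 not called (median -0.22). The locus of Rhot2, among the higher ones, was merged with Gm20683, Rhbdl1 and Wdr90, so its call is not for Rhot2 alone. Armcx1 and Armcx3, outer membrane proteins of mitochondrial transport, were at -3.12 ± 0.13 and -2.18 ± 0.05 on the log2 scale (SE, adjusted p = 4.2e-09 and 5.7e-11, edgeR). Trak1, an adaptor between mitochondria and kinesin, was at -1.03 ± 0.05 (adjusted p = 2.4e-08), and at -0.67 with chromosome medians and -0.77 with neighbour medians removed. With chromosome medians removed, 4 of the 9 genes were called lower and 0 higher, beside 31.7% and 31.1% of all loci.

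**Figure D5:**
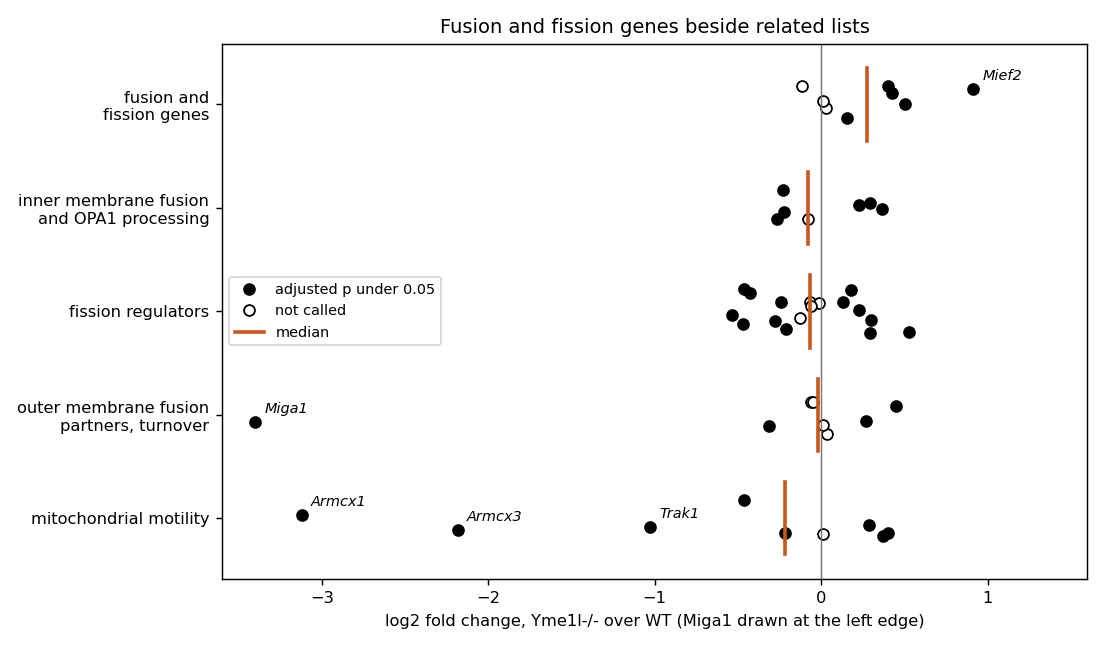
Log2 fold change (horizontal axis, Yme1l-/- over WT) of the 8 tested fusion and fission genes and of 41 tested related genes in 4 lists (vertical axis; spread within a list is for legibility), filled where the adjusted p was under 0.05, with the median of each list as a bar. Miga1 (-7.02) is drawn at the left edge; the core genes lie between -0.11 and 0.91, and Armcx1 reaches -3.12.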

How the data were processed

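RNA was poly(A)-selected and sequenced as stranded read pairs, with 3 cultures of each genotype. The authors mapped reads to GRCm38 (mm10, Ensembl build 91) with HISAT2 2.0.4, assembled transcripts with StringTie 1.3.3 and compared genotypes with Cuffdiff 2.2.1. The deposited counts are raw fragment counts per assembled locus, not normalized, with overlapping genes merged. The authors' FPKM values are pooled per genotype; the deposited log2 ratios and p-values were not used.

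Counts were analysed with edgeR 4.0.16 in R 4.3.3. Loci were filtered with filterByExpr (minimum count 10), leaving 13867, scaled with TMM factors (0.973 to 1.04) and compared with the quasi-likelihood test (robust, two-sided, no covariates), adjusted by Benjamini-Hochberg over all loci. The fit was tested on simulated data. SE came from the fold change and test statistic. No 2 libraries of a genotype were repeats of each other within sampling noise (chi-square per degree of freedom 8.54 to 37.2). Named were all members, Yme1l1, Oma1 and, per related list, the 3 largest changes among calls; Atf4, Miga2 and genes below the filter were named after their values were seen. The members and lists were chosen with earlier results of these data known. Gene models came from GENCODE M21 and promoters from RefSeq, both GRCm38.

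Alternatives were RLE or upper-quartile scaling, DESeq2 1.42.0, no filter, a minimum of 10 counts in all samples, a replicate block, each library left out, libraries thinned to the smallest, and removal of the median of each chromosome or of 25 tested loci on each side; 65 tested loci without a single position on an autosome or X were not shifted.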

Additional observations from a re-analysis of the deposited data

How the results depend on the processing

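Mfn1, Fis1 and Mief2 kept their direction and call under all 15 alternatives, and Yme1l1 did too. The count of called loci lay between 8513 and 10051, and the higher share of them rose from 49.6% to 55.1% under upper-quartile scaling. Between 4 and 6 members were called. Leaving out 1 library at a time gave 8847 to 9406 called loci, 4 to 5 called members and 28 to 30 called related genes. Under these omissions the log2 fold change ranged from -0.17 to -0.05 for Opa1, 0.40 to 0.45 for Mfn1, 0.12 to 0.18 for Mfn2, -0.0042 to 0.070 for Dnm1l, 0.34 to 0.44 for Fis1, -0.014 to 0.048 for Mff, 0.49 to 0.52 for Mief1 and 0.85 to 0.99 for Mief2. The Mfn1 share differed by 4.12 to 4.58 percentage points and the Mief1 share by -5.53 to -3.86. The sign of Dnm1l turned without WT replicate 1 (-0.0042), and that of Mff without WT replicate 3 (-0.0094), Yme1l-/- replicate 1 (-0.014) or Yme1l-/- replicate 2 (-0.0037), all uncalled. Mfn2 lost its call without WT replicate 2 (0.12) or Yme1l-/- replicate 2 (0.14). With chromosome medians removed Mff was called (0.16), Mief1 (-0.087), Phb (-0.066) and Oma1 (0.016) changed sign, and 18 related genes were called. With neighbour medians removed Mief1 (-0.14), Phb (-0.25), Phb2 (-0.0062), Slc25a46 (0.089) and Huwe1 (0.023) changed sign, and 16 related genes were called; these settings subtract the surroundings by construction. With the replicate block Opa1 was called (-0.12, adjusted p = 0.024, edgeR), and 9794 loci were, while Phb lost its call (adjusted p = 0.080), as it did with no filter (adjusted p = 0.062). The numbers were not taken to pair the cultures, since deviations of same-numbered libraries correlated at 0.14, -0.09 and 0.05. Among the members Gdap1 alone did not pass the filter, and whether more depth would change the other calls was not tested.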
